A study of Homo sapiens with 26 samples.

Results

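The AP-1 and ATF transcription factors are represented here by 8 target genes, JUN, JUNB, FOSL1, FOSL2, ATF1, ATF4, ATF5 and ATF6B. They were chosen by name, as every guide RNA whose target label was one of these symbols. This gave 82 guide measurements of 12342 in all sorted libraries. Library TF1 held 30 of them (FOSL1, FOSL2 and ATF6B), TF2 held 20 (JUNB and ATF5) and TF3 held 30 (JUN, ATF1 and ATF4), with 10 guides per gene. The remaining 2 guides, both against JUN, were in a small test library. The other libraries held 0 guides with these labels, including the exon scan that was followed over time in culture.

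RH4 is an established rhabdomyosarcoma cell line, a tumour line of the skeletal muscle lineage, and its labels give it the PAX3-FOXO1 fusion. All samples used here came from that line after infection with a pooled guide library for CRISPR knockout and drug selection. At day 7 an antibody stain for myosin heavy chain (MYH), which mature muscle cells make for contraction, was used to separate cells with much MYH (MYH high) from cells with little (MYH low). The sequenced material was the guide cassette in genomic DNA, so the values count cells that carry a guide and say nothing of the RNA or protein of the target. There was 1 MYH high and 1 MYH low sample for each library, so no difference below has a replicate check and no test between the arms was possible. Guide sequences are not given in these sources, nor is the form of Cas9 used, and how well each target was cut was not analysed here.

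All 8 genes code for basic leucine zipper proteins, which bind DNA as dimers through a basic region and pair through a zipper of leucines. AP-1 is a dimer of a JUN family protein (JUN or JUNB here) with a FOS family protein (FOSL1, also called FRA-1, or FOSL2, also called FRA-2) or with another JUN protein, and it responds to growth factors, stress and MAP kinase signalling. In muscle, JUN is known as a factor that can hold myoblasts in a proliferating state and interfere with the activity of MYOD1. ATF1 is a close relative of CREB that is activated by phosphorylation. ATF4 and ATF5 act in the integrated stress response, in which their translation rises when general translation is reduced. ATF6B is a membrane-bound factor of the endoplasmic reticulum that is cut and sent to the nucleus under protein-folding stress.

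The value of a guide is the log2 ratio of its share of reads in MYH high over MYH low cells, in CPM (reads per 1000000 reads of the sample) with 1 CPM added, after subtraction of the median over all guides of the pool. In the test library, which has 50 negative-control guides, the median of those was subtracted. The value of a gene is the median over its guides. A positive value means that cells with the guide were more frequent among MYH high cells. The total count ran from 44101115 (TF3, MYH low) to 126788529 reads (TF1, MYH low) in the pools and from 22355642 to 28604631 reads in the test library. All 82 guides passed the minimum of 10 reads over both arms. The member guide with the fewest reads had 13630 over both arms. The exact binomial 95% confidence interval of a guide's ratio had a median half-width of 0.019 and at most 0.049 on the log2 scale. These intervals cover the sampling of reads only. PCR reads without molecular identifiers are not independent molecules, so the intervals may understate the error from counting cells. In the pools they are far narrower than the spread between guides of a gene. For the 2 JUN guides of the test library the SD over guides was 0.02, with half-widths of 0.011 and 0.006.

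Knockout of these 8 genes was accompanied by small shifts between MYH high and MYH low cells, in both directions. JUN had the highest value, 0.18 (SD over guides 0.20), and ATF5 followed at 0.15 (SD 0.18). FOSL1 (0.04), ATF6B (-0.01), FOSL2 (-0.05) and ATF1 (-0.05) lay close to 0. ATF4 had -0.12 (SD 0.13) and JUNB had -0.18 (SD 0.32), the lowest value of the 8. ATF4 was instead the lowest by the mean (-0.13, JUNB -0.10) and by the trimmed mean. It was also the lowest when centred on negative controls (-0.11, JUNB -0.07). With that centring ATF5 was the highest (0.26, JUN 0.20 in TF3). With a limit of 0.3 on the log2 scale (1.23-fold), 0 of 8 genes were called higher and 0 of 8 lower. Over the 320 targets of TF1, TF2 and TF3 outside the shared control sets, 1.88% were called higher and 0.625% lower. With shares this low, a count of 0 among 8 genes does not set them apart.

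Against this scale, the guide set against the PAX3 DNA-binding part of the fusion (PAX3_Fusion_DBD) had values of 3.84 in TF1, 2.91 in TF2 and 2.71 in TF3. NFYC, a subunit of the CCAAT-binding factor NF-Y, had 1.63 in TF1, the highest value of the 320 targets. MYOG, which drives terminal muscle differentiation, had -0.56 in TF1, the lowest. The absolute value of the 8 genes had a median of 0.09, against 0.05 over the 320 targets. Their signed median was -0.03, against -0.01 over all targets. Of the 80 guides in the pools, 39 were above 0 and 41 below, or 48.8% above, and the same share of all target guides, 48.8%, was above 0.

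Neighbours in the order of the 8 values differed by less than the SD over guides of either gene, with one exception. The gap between ATF5 and FOSL1, 0.11, was larger than the SD of FOSL1 (0.08) and smaller than that of ATF5. These 2 genes were in different pools, each centred on its own median. Such an order across pools is a description only.

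JUN, the founding member of AP-1, had the highest median of the members in the main setting, 0.18. The top place depended on the setting. Centred on negative controls, ATF5 was higher, at 0.26 in TF2 against 0.20 for JUN in TF3. By the summed CPM ATF5 was also slightly higher, at 0.178 against 0.175. By the mean, by the trimmed mean and with no centring, JUN was higher than ATF5. Summed over its 10 guides in TF3, JUN had 8537 CPM in MYH high and 7993 CPM in MYH low cells. Of these guides, 9 were above 0 and 1 below. The highest was sgRNA2550, at 887 CPM in MYH high and 624 CPM in MYH low cells, a log2 ratio of 0.59 with a counting interval of 0.57 to 0.61. Next were sgRNA2547 at 0.37, sgRNA2548 at 0.26 and sgRNA2545 at 0.23. The middle guides, sgRNA2549 at 0.19 and sgRNA2544 at 0.18, set the gene's value. Below them lay sgRNA2543 at 0.13, sgRNA2542 at 0.12 and sgRNA2541 at 0.01. The last of these was the most abundant JUN guide, with 2363 CPM in MYH high and 2472 CPM in MYH low cells. The single guide below 0, sgRNA2546 at -0.17, was the least abundant, with 146 and 174 CPM. Leaving out each guide in turn gave 0.18 to 0.19. A median can then only move to a neighbouring middle guide, so this range says little about the weight of sgRNA2550.

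JUN ranked 6 of 108 targets in TF3 from the top, and it held that rank with the mean, with the trimmed mean and with the summed CPM in place of the median. The target next above it was CDC5L, a splicing factor, at 0.21, and the target next below was PTF1A, a pancreatic and neural factor, at 0.17. Of the 10 negative-control guides of TF3, 2 lay above the JUN value and 8 below. Those guides ran from -0.23 to 0.94, so the JUN value lay inside the range of guides with no target. That range is of single guides, which spread more widely than a median of 10 guides, so the comparison is a loose one.

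JUN was also the only one of the 8 genes measured in a second library. The test library carried a pair of JUN guides, both named for exon 1. Guide JUN_E1_162.4 had 5029 CPM in MYH high and 4867 CPM in MYH low cells, a log2 ratio of 0.16 (counting interval 0.15 to 0.17). Guide JUN_E1_162.10 had 16811 and 15932 CPM, a ratio of 0.19 (counting interval 0.18 to 0.20). Their median was 0.18, and that of the 10 guides of TF3, a separate library and sort, was also 0.18. These medians have different references, all guides of the pool in TF3 and the negative controls in the test library. Centred on negative controls in both libraries, JUN had 0.20 in TF3 and 0.18 in the test library. Whether these guides repeat sequences of the TF3 set is not given in the sources used here. Of the 50 negative-control guides of the test library, 4 lay above the lower JUN guide and 3 above the higher one, and the SD of those controls was 0.15. Neither guide reached 0.3, which 0% of the negative controls passed upward, while 4.0% passed -0.3 downward. With no centring the values were 0.10 in TF3 and 0.06 in the test library, so both kept their sign and the size depended on the reference.

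JUNB, the other JUN family member, had the lowest median of the 108 targets of TF2. Its guides disagreed with each other. In MYH high cells they ran from 176 to 1566 CPM with a median of 546 CPM, and in MYH low cells from 134 to 1977 CPM with a median of 623 CPM. Of the 10 guides, 7 were below 0. The lowest were sgRNA1378 at -0.49, sgRNA1384 at -0.45 and sgRNA1377 at -0.31, followed by sgRNA1386 at -0.26, sgRNA1382 at -0.25, sgRNA1380 at -0.11 and sgRNA1383 at -0.09. The other 3 lay clearly apart on the opposite side: sgRNA1379 at 0.21, sgRNA1381 at 0.23 and sgRNA1385 at 0.48. The last was the least abundant JUNB guide in both arms, at 176 CPM in MYH high and 134 CPM in MYH low cells. No JUNB guide had a value between -0.09 and 0.21.

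The rank of JUNB depended on the summary. By the median and by the summed CPM it was the lowest of 108 targets, by the trimmed mean it was 5 from the bottom, and by the mean, at -0.10, it was 13 from the bottom. Its SD over guides, 0.32, was the 95th smallest of 108, against a median SD of 0.21 over the targets of TF2. The next target above it, TSC22D2, had the same value to 2 decimals, -0.18. The 10 negative controls of TF2 had a median of -0.11, and 4 of them lay below the JUNB value. Centred on those controls, JUNB had -0.07. JUN and JUNB were in different pools, and the difference between their values was not tested.

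The FOS family members, both in TF1, had the tightest guide sets of the 8 genes and lay on either side of 0. FOSL1 had 0.04 (SD 0.08), with 7 of 10 guides above 0. Its guides ran from -0.07 (sgRNA148) to 0.20 (sgRNA143), and its summed abundance was 8998 CPM in MYH high and 9525 CPM in MYH low cells. The pool median subtracted in TF1 was -0.14, which is why a gene with fewer CPM in MYH high cells can have a value above 0. FOSL1 ranked 22 of 104 targets from the top, between ZNF285 and NPAS2, both also at 0.04. With no centring it was the only one of the 8 genes whose value changed sign, to -0.10.

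FOSL2 had -0.05 (SD 0.09), with 8 of 10 guides below 0. Its guides ran from -0.21 (sgRNA160) to 0.07 (sgRNA159), and its summed abundance was 6915 CPM in MYH high and 7937 CPM in MYH low cells. It ranked 27 of 104 from the bottom by the median and 13 by the mean. The neighbours in rank were NKX2-1 and FOXC1, both at -0.05. FOSL1 and FOSL2 shared the pool, the cells and the sort, and their medians differed by 0.09. Of the FOSL1 guides, 9 of 10 lay above the FOSL2 median, and 9 of 10 FOSL2 guides lay below the FOSL1 median. The guide ranges nonetheless overlapped, with 2 FOSL1 guides above all FOSL2 guides and 4 FOSL2 guides below all FOSL1 guides.

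ATF4, the main effector of the integrated stress response, had a small shift toward MYH low cells. Its value in TF3 was -0.12 (SD 0.13), with 9 of 10 guides below 0. The lowest guide was sgRNA2123, at 319 CPM in MYH high and 431 CPM in MYH low cells, a log2 ratio of -0.35 (counting interval -0.39 to -0.33). It was followed by sgRNA2128 at -0.29, sgRNA2126 at -0.19, sgRNA2129 at -0.14 and sgRNA2122 at -0.13. Nearer 0 were sgRNA2130 at -0.11, sgRNA2125 and sgRNA2127, both at -0.08, and sgRNA2124 at -0.03. The single guide above 0 was sgRNA2131, at 0.12. Leaving out each guide in turn gave -0.13 to -0.11. The SD was the 16th smallest of 108 targets in TF3. By the median ATF4 was 10 from the bottom, between MBD3 and ZNF202, both at -0.12, and by the mean it was 3 from the bottom. Of the 10 negative-control guides of TF3, 2 lay below the ATF4 value and 8 above.

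ATF5, the closest relative of ATF4 among the 8, leaned the other way. Its value in TF2 was 0.15 (SD 0.18), with 8 of 10 guides above 0. The summed abundance was 7593 CPM in MYH high and 7139 CPM in MYH low cells. The highest guides were sgRNA1058 at 0.39, sgRNA1055 at 0.36, sgRNA1051 at 0.34 and sgRNA1056 at 0.30. They were followed by sgRNA1053 at 0.18, sgRNA1052 at 0.12, sgRNA1057 at 0.06 and sgRNA1050 at 0.04, while sgRNA1059 lay at -0.0014 and sgRNA1054 at -0.15. ATF5 ranked 7 of 108 from the top by the median, between CDX2 and HSF1, both at 0.15, and 13 of 108 by the summed CPM. Of the 10 negative-control guides of TF2, 2 lay above the ATF5 value and 8 below. Centred on those controls ATF5 had 0.26, but they spread widely (SD 0.66). ATF4 and ATF5 were in different pools, and the difference between them was not tested.

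ATF1 and ATF6B stayed near 0 with guides on both sides. ATF1 had -0.05 (SD 0.27) in TF3, with 4 guides above 0 and 6 below. Its guides ran from -0.49 (sgRNA2117) to 0.36 (sgRNA2120), and its SD was the 83rd smallest of 108. Its neighbours in rank were SRF, a serum-responsive factor of muscle and growth genes, and FOXO6, both at -0.05. ATF6B had -0.01 (SD 0.15) in TF1, with 5 guides above 0 and 5 below, from -0.26 (sgRNA17) to 0.26 (sgRNA13). It was the only one of the 8 genes whose median changed sign when a single guide was left out, between -0.06 and 0.04.

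Within TF3, JUN and ATF4 differed most. Their medians lay 0.30 apart, 9 of 10 JUN guides were above the ATF4 median, and all 10 ATF4 guides were below the JUN median. Of the JUN guides, 8 lay above every ATF4 guide. The ranges still overlapped, because the lowest JUN guide, at -0.17, was below 7 of the ATF4 guides. ATF5 and JUNB in TF2 had medians 0.33 apart, and 0 ATF5 guides lay above all JUNB guides, since the highest JUNB guide exceeded every ATF5 guide. Guides of 1 pool come from a single culture and sort, so these differences describe the samples at hand.

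At least 8 of 10 guides pointed one way for 4 of the 8 genes. At least 8 of 10 guides lay above 0 for 2 of the 8 genes (JUN and ATF5), against 10.0% of the 320 targets. At least 8 guides lay below 0 for 2 of the 8 (ATF4 and FOSL2), against 9.38% of targets. With 8 genes, these counts are small, and the difference from the background was not tested. The side on which a guide lies depends on the centring, and these counts were not repeated with other centrings.

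Single guides past 0.3 were counted in each pool. In TF1, 0 of 30 guides of FOSL1, FOSL2 and ATF6B reached 0.3 and 0 reached -0.3, against 6.48% and 2.85% of the target guides of that pool. In TF2, 5 of 20 guides reached 0.3 (4 of ATF5 and 1 of JUNB), against 10.1%, and 3 of 20 reached -0.3 (all of JUNB), against 6.16%. In TF3, 3 of 30 reached 0.3 (2 of JUN and 1 of ATF1), against 9.96%, and 3 of 30 reached -0.3 (2 of ATF1 and 1 of ATF4), against 8.57%. The median SD over guides was 0.15 in TF1, 0.21 in TF2 and 0.21 in TF3, and within TF1 FOSL1 had the 6th and FOSL2 the 10th smallest SD of 104 targets.

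The signed ratio was only weakly correlated with the abundance of a guide in most of the 8 genes. Over the 10 guides of each gene, the Spearman correlation between CPM in MYH low cells and the ratio ran from -0.41 for JUNB to 0.19 for ATF4. Over all target guides it was -0.01 in TF1, -0.20 in TF2 and -0.09 in TF3. With the absolute ratio it was -0.12 in TF1, -0.15 in TF2 and -0.27 in TF3, so less abundant guides tended to have the larger absolute ratios in all 3 pools. Both measures share the MYH low count, and guides are not independent replicates.

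The authors' deposited table gives a score, beta, for each target, whose base of logarithm is not stated. In the authors' deposited table JUN had the highest beta of the 8 genes, 0.134, and ATF4 the lowest, -0.0884, with JUNB at -0.0709. By beta, JUN was 6 of 108 from the top of TF3, ATF4 was 3 of 108 from the bottom, and JUNB was 13 of 108 from the bottom of TF2. ATF5 had 0.116, FOSL1 0.0334, ATF6B -0.0087, ATF1 -0.0263 and FOSL2 -0.0449 in the authors' deposited table. In its false discovery rate column 0 of the 8 genes passed 0.05, where 0.625% of the 320 targets passed upward and 0.625% downward. The lowest rate of the 8 was 0.423, for JUNB, while JUN had 0.846. In the Wald column, also of the authors' deposited table, 0 of the 8 passed, where 0.312% of targets did in either direction, and the lowest rate was 0.265, for FOSL2. Before adjustment, 4 of the 8 genes (ATF4, JUN, ATF5 and FOSL2) had a Wald p-value under 0.05 in the authors' deposited table, as did 48 of the 320 targets. In the other p-value column of the authors' deposited table it was 1 of the 8 (ATF4, at 0.0348) and 15 of the 320 targets, with JUN at 0.183 and ATF5 at 0.357.

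Related genes were looked up by name over the 10 pools. None of 7 further AP-1 genes (such as FOS, FOSB and JUND) and none of 14 further ATF and CREB genes was among the target labels used here, so partners that could stand in for a lost member were not analysed here. Of 25 other names of the basic leucine zipper group, 9 were measured. Their median was 0.05, with 0 called higher and 0 lower, against 1.88% and 0.625% of the 320 targets. The highest was CEBPD, a factor of inflammatory and growth-arrest responses, at 0.13 (SD 0.26), and the lowest was MAF, a large MAF protein, at -0.15 (SD 0.18) with 8 of 10 guides below 0. DDIT3, also called CHOP and a known target of ATF4, had -0.09 (SD 0.31). CEBPG, a dimer partner of ATF4, had -0.07 (SD 0.21). NFE2L1 and NFE2L2, oxidative and proteasome stress factors, had 0.05 and 0.04. CEBPZ, at 0.05, carries the CEBP name without being a typical zipper protein.

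Of 24 kinases upstream of these factors, 5 were measured, with 0 called higher and 1 lower. The share of all targets called in the pools of these kinases was not counted. Whether 1 of 5 is unusual there cannot be told. The called kinase was MAPK14, the p38 alpha kinase, which phosphorylates ATF2, at -0.31 (SD 0.12) in KP2 with 10 of 10 guides below 0. The ERK pathway kinases MAP2K1 (-0.05), MAP2K2 (-0.02) and MAPK3 (-0.04), which act upstream of FOSL1, lay near 0. RPS6KA1 also had a median near 0 (-0.01), but its guides spread widely (SD 0.64), with the highest at 2.02. Of 7 coactivator names 3 were measured. CREBBP, which binds phosphorylated CREB and ATF1, had -0.19 (SD 0.41, 30 guides), EP300 had -0.11 (SD 0.19), both in CF3, and JMJD6 had 0.06 in CF2. In CF3 the negative-control guides had a median of 1.30, and centred on them CREBBP had -1.48 and EP300 -1.40. The part of those raised controls in the values was not tested.

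Of 13 names of factors of muscle and rhabdomyosarcoma, 4 were measured under their plain gene symbol outside the shared control sets, with MYOD1 counted in TF1, where 10 guides of its own joined the shared 10. In that list 0 were called higher and 2 lower, against 1.88% and 0.625% of the 320 targets, and the median was -0.24. The called genes were MYOG, given above, with 10 of 10 guides below 0, and MYOD1, the muscle lineage factor, at -0.39 (SD 0.26) with 19 of 20 guides below 0. In the pools that carried the JUN family genes, the shared MYOD1 guides had -0.07 (SD 0.23) in TF2 and 0.06 (SD 0.21) in TF3. The highest of the list was MYCN, a transcription factor of the MYC family, at 0.0033 (SD 0.15) in TF3.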

How the data were processed

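PCR copies of the guide cassette were made from genomic DNA of sorted RH4 cells and sequenced (labels' protocols). What the authors deposited per sample is a raw count of reads for each guide. The submitters' processing notes list FastQC and MAGeCK, without version or settings. For TF1, TF2 and TF3 the authors also deposited a table with 1 line per target, whose columns are named as in the maximum likelihood model of MAGeCK. It gives beta and z as a score, 2 kinds of p-value and the false discovery rate of each, per the file headers.

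Counts were scaled to CPM over each sample's total. Log2 ratios of MYH high over MYH low were taken with a pseudocount of 1 CPM. A minimum of 10 counts in the sum of both arms took out 8 guides of TF1, none of them a guide of the 8 genes. Ratios were centred on the median of all guides in the pools, and on that of the negative controls in the test library, which has at least 20. Targets are those outside the control sets shared by the pools. The limit of 0.3 is a size, not a test, because each arm is 1 sample. All 8 symbols matched the RefSeq gene table of GRCh38.p14. The 8 genes, the lists of related genes and the rule for named genes (the 8 genes, their rank neighbours, the extremes and called members of each list, and controls for scale, with a few further list members named after their values were seen) were chosen with earlier results of these data known. Alternatives were other centrings, pseudocounts, count minimums, summaries and limits. The calculation was tested on simulated counts. The software was Python 3.11.15 with scipy 1.17.1, numpy 2.4.6 and pandas 2.3.3.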

Additional observations from a re-analysis of the deposited data

How the results depend on the processing

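With every alternative tried (3 centrings, 2 pseudocounts, 2 count minimums, 3 summaries, and limits of 0.2 and 0.5), 0 of the 8 genes were called higher and 0 lower. The counts of single guides moved more. Of the 80 guides in the pools, 8 reached 0.3 and 6 reached -0.3. Centred on negative controls these counts were 10 and 4, and with no centring they were 3 and 12. With a limit of 0.2 they were 14 and 12, and with a limit of 0.5 they were 1 and 0. A change of centring moves all guides of a pool together. The shares of all target guides at these settings were not counted, so these counts do not set the members apart. Of the 8 genes, FOSL1 with no centring was the only value to change sign under another setting, and ATF6B the only one to do so when each guide was left out in turn. JUN in TF3 lay between 0.10 and 0.20 over the settings, ATF5 between 0.06 and 0.26, ATF4 between -0.20 and -0.11, and JUNB between -0.27 and -0.07. In the test library 3 of the negative controls are named for POLR2D, CDK9 or hRosa, and centred without them, a setting chosen after seeing the data, JUN had 0.17 there. The ranks by other summaries were also added then. The half-width of the interval from read counts was at most 0.049 on the log2 scale per guide. The number of cells behind a guide and the spread between repeats were not analysed here.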
